A study of Mus musculus with 33 samples.

Results

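The longest H3K27ac domains of the library labelled pro-B cell are 897 of the 17935 peaks listed for that 1 ChIP-seq library, and they were chosen by length alone, as the peaks whose length was at or above the 95th percentile of all lengths. This percentile lay at 7800.3 bp. By its labels the library came from pro-B cells that were sorted by flow cytometry directly from the bone marrow of C57BL/6 mice of the genotype Rag1(Cre/Cre), and chromatin was precipitated with an Abcam antibody against H3K27ac. No control group or second library was compared, so the values below describe 1 library and carry no test. The other 32 samples of the series, VDJ-seq libraries of Igk and Igh recombination and Hi-C libraries, were not used here. In the study the H3K27ac data served to tell active from inactive chromatin in chromosome contact maps.

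H3K27ac is acetylation of lysine 27 on histone H3, which the coactivators p300 and CBP place on the nucleosomes of active promoters and enhancers. Long stretches of the mark often cover groups of neighbouring enhancers, and in many cell types such stretches lie at genes that mark the identity of the cell. Pro-B cells rearrange the immunoglobulin heavy-chain gene Igh, and the transcription factors E2A (encoded by Tcf3), Ebf1 and Pax5 set up their gene expression. Whether Igh was rearranged in the Rag1(Cre/Cre) cells of this library was not tested. GATA1, a zinc finger factor that binds DNA at GATA sequences, together with Tal1, Lmo2 and Ldb1 directs red blood cell development.

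The genes at these domains went beyond those of the pro-B cell label. Over all 22380 protein-coding genes, 10699 (47.8%) had an H3K27ac peak within 1 kb of a transcription start site and 630 (2.82%) a long domain there, and the counts below stand beside these shares. The marker lists were chosen with earlier results of these data known. Of 8 erythroid marker genes, all 8 had a peak at a start site, and at 4 of them the peak was a long domain. Of 12 pro-B cell marker genes, 11 had a peak, Cd79b had none, and 2, Vpreb1 and Igll1, lay in a long domain, which they shared. A peak was listed at 2 of 10 T cell markers (Lck and Tcf7), at 1 of 10 myeloid markers (Cebpa), at 1 of 8 markers of non-haematopoietic tissues (Gfap) and at 0 of 6 NK cell markers. None of these 4 genes had a long one, which 5.89% of all protein-coding genes with a peak had. The library thus carried the mark at genes of the B cell and of the red cell lineage. Which cells of the sorted sample it came from was not tested, and the peak list used here holds no signal height from which shares could be estimated.

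The following stretches of DNA from these domains are shown first, because the results turn on the genes beside them. They are from the mm9 assembly, written 5′ to 3′, and capitals mark AGATAA (the core that GATA factors bind), CAGCTG (an E-box, bound by E2A) and ATTTGCAT (the octamer, bound by Oct factors and common in immunoglobulin control elements), each on either strand. The first 2, chosen after the sequences were seen, are the 250 bases before the annotated 5′ end of Btg2 (chr1:135975698-135975947, minus strand) and of the surrogate light chain gene Igll1 (chr16:16864079-16864328, minus strand). The other 4 are windows of 300 bases, on the plus strand, picked from a domain for the highest number of matches to AGATAA or, at Igh, to the octamer. They lie upstream of the β-globin genes (chr7:111007623-111007922), in Nprl3 beside the α-globin genes (chr11:32145661-32145960), in an intron of Zfpm1 (chr8:124831033-124831332) and between the J genes and the constant gene Ighm of the Igh locus (chr12:114665488-114665787).
Btg2: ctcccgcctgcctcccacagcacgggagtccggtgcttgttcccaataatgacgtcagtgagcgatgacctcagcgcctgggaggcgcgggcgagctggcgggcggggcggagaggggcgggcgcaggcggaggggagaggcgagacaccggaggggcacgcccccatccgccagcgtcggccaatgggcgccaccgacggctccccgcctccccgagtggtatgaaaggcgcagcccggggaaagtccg
Igll1: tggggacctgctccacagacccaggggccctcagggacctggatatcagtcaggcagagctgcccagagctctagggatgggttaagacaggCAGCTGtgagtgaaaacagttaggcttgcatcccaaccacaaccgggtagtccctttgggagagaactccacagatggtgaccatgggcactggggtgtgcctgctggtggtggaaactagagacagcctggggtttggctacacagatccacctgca
Hbb upstream: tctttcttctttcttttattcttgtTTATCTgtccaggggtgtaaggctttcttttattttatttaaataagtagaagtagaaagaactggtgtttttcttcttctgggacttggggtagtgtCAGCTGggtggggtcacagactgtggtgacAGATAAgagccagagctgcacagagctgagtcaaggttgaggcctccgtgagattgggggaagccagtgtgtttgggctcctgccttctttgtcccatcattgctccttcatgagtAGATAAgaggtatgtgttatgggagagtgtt
Nprl3: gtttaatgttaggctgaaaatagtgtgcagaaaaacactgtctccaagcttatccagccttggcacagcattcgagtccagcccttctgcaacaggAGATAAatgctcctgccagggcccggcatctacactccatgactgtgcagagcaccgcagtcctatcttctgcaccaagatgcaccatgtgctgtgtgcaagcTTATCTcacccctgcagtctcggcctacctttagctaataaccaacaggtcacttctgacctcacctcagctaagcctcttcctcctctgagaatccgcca
Zfpm1: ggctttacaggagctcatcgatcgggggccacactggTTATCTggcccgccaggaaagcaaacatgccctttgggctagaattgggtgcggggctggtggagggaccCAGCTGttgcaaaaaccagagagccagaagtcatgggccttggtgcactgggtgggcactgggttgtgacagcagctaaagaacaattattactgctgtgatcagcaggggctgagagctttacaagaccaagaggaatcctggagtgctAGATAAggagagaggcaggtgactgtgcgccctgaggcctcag
Igh: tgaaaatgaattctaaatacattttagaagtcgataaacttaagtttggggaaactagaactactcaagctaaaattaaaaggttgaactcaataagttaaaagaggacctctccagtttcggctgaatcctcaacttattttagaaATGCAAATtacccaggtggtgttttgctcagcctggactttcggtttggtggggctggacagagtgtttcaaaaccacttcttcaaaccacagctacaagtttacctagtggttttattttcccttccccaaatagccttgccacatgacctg

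The window upstream of the β-globin genes held 3 matches to AGATAA and 1 to CAGCTG, and those of Nprl3 and Zfpm1 held 2 to AGATAA each, with 1 to CAGCTG in Zfpm1. The Igll1 promoter held 1 match to CAGCTG, and the Btg2 promoter none of the 3 motifs. In the Igh window 1 octamer was found and no AGATAA. The windows were picked for these letters, so the matches are descriptions of the sequences shown. None of the 6 overlapped an annotated exon.

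The long domains ran from 7801 to 36017 bp, with a median of 10068 bp, against a median of 2414 bp over all peaks. They made up 5.0% of the peaks and 17.8% of the listed bases, 9.92 of 55.7 Mb. A length of at least 10 kb was reached by 457, of at least 15 kb by 104 and of at least 20 kb by 22. At the threshold the lengths were continuous. Just inside it lay domains of 7801 bp at Hcfc1, of 7802 bp in Clasp1 and of 7803 bp in Vps13d, and just outside it peaks of 7800 bp at Mfsd4, of 7798 bp in Scube1 and of 7793 bp at Ublcp1.

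**Figure D1:**
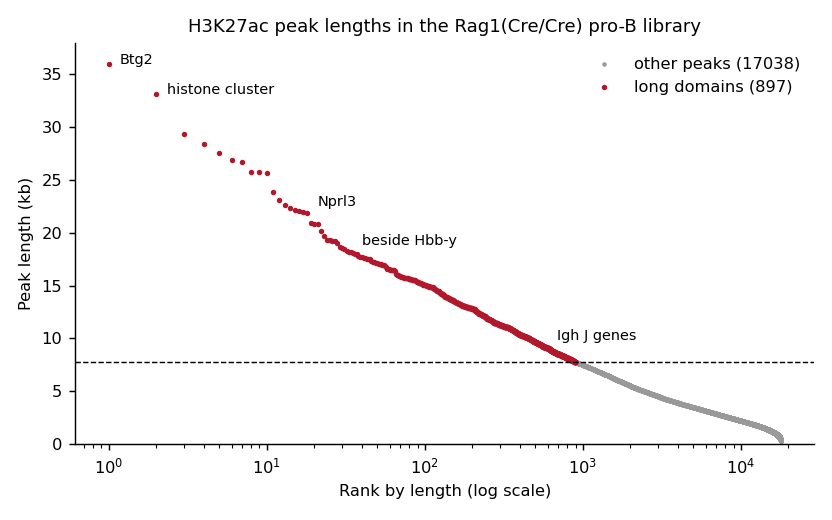
Length in kb of each of the 17935 H3K27ac peaks (y axis) against its rank by length (x axis, log scale), with the 897 long domains in red, the other peaks in grey and the threshold as a dashed line. The longest peak, 36.0 kb, was at Btg2. Lengths were continuous around the threshold, and the domain at the Igh J genes (7816 bp) lay close to it.

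The longest domain, 36.0 kb on chromosome 1 (chr1:135950152-135986168), covered the whole of Btg2, an antiproliferative gene that p53 induces. It began 10.5 kb upstream of the gene and ended 25.5 kb downstream of its 5′ end, although the gene spans only 3.95 kb. The next 2, of 33.1 and 29.3 kb, lay in the histone gene cluster on chromosome 13, over 9 and 7 histone genes. Among the 20 longest, 9 others had the start site of a protein-coding gene within 1 kb: Tbc1d2b (27.5 kb), Stradb and Trak2 (26.9 kb), Arsg (25.8 kb), Ap4b1, Dclre1b and Hipk1 (25.7 kb), the tetraspanin Cd82 (23.8 kb), the deubiquitinase Usp7 (22.6 kb), D930020E02Rik (22.2 kb), Nprl3 (21.9 kb) and the forkhead factor Foxo3 (21.0 kb). The remaining 8 had none, although 2 of them had the start site of a noncoding RNA gene (SNORA17, and Gm15518 with Gm16619). Of these, 5 lay inside Stk24 (28.4 kb), the GATA1 cofactor gene Zfpm1 (25.7 kb), Fig4 (23.1 kb), Mboat2 (22 kb) and Chst11 (20.9 kb). The other 3 lay outside protein-coding genes, 63.4 kb from Med13l (26.7 kb long), 91.8 kb from Hmcn1 (22.4 kb) and 45.2 kb from Cd47 (21.9 kb).

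Red cell genes were next described by lists written with the domains already in view, so their counts are descriptions of what had been noticed. The lists hold 70 genes in all, including the 8 erythroid markers. A peak lay at the start site of 67 of them and a long domain at 42 (60.0%), in 40 separate domains, or 4.46% of the 897. The shares over all protein-coding genes were 47.8% with a peak and 2.82% with a long domain.

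Among the transcription factors of red cell development, 12 of 13 genes had a long domain. Foxo3 had 21.0 kb, Tal1 17.5 kb, Zfpm1 13.0 kb at its start site besides the longer domain inside it, Klf3 12.9 kb, the bridging factor Lmo2 12.8 kb, Nfe2, which encodes a subunit of NF-E2, 12.3 kb, and Ldb1, which acts in a complex with Tal1 and Lmo2, 10.8 kb. The master regulator Gata1 carried 9.93 kb and Gfi1b 7.98 kb at its start site. Klf1, an activator of β-globin, had a peak of 6.50 kb, below the threshold. Runx1 and Tcf3 are on this list and also on the B cell list.

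At the α-globin locus 3 long domains followed each other over 58.5 kb of chromosome 11 (chr11:32137703-32196166) and covered 47.0 kb of it. The first, of 21.9 kb, lay over Nprl3, whose introns hold the distal enhancers of the α-globin genes, and the last, of 11.8 kb, lay within 1 kb of the start sites of Hba-a1, Hba-a2 and Hbq1b. The embryonic gene Hba-x had no peak. At the β-globin locus the long domain was 18.2 kb long and lay 4.06 kb from the embryonic gene Hbb-y, on the side of the locus control region (chr7:111005809-111023965). Hbb-y (4.73 kb), Hbb-b1 (3.12 kb) and Hbb-b2 (2.72 kb) themselves had shorter peaks, and Hbb-bh1 had none.

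Of 9 enzymes of the haem pathway, 9 had a peak and 3 a long one: Cpox (17.2 kb), the last enzyme ferrochelatase, Fech (14.9 kb), and Uros (12.3 kb). Alas2, the erythroid enzyme of the first step, had 6.56 kb and Alas1, its counterpart in other tissues, 1.84 kb. Of 9 genes listed under iron handling 6 had a long domain. They were Glrx5 (17.0 kb) and Abcb10 (11.1 kb), which serve mitochondrial iron-sulphur clusters and haem, the ferrireductase Steap3 (15.7 kb), the mitochondrial iron importer Slc25a37 (13.3 kb), the iron transporter Slc11a2 (10.2 kb) and Slc25a38 (9.80 kb). The transferrin receptor Tfrc had 5.96 kb.

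Of 20 genes of the red cell membrane and its skeleton, 20 had a peak and 12 a long one. The membrane protein gene Gypc (13.4 kb), the anion exchanger Slc4a1 (11.1 kb), the blood group genes Ermap (11.5 kb), Kel (10.8 kb) and Rhd (10.3 kb), and Ank1 (9.89 kb), whose product links the skeleton to the membrane, were among them. The spectrin genes had shorter peaks at their start sites, of 4.11 kb (Spna1) and 5.74 kb (Spnb1), and Spnb1 held a long domain of 9.03 kb further inside. Of 10 red cell enzymes 6 had a long domain, with carbonic anhydrase Car2 at 17.7 kb and catalase, Cat, at 8.49 kb. Car1 had no peak. Of 10 megakaryocyte genes, 4 had a peak and 1, Vwf, a long domain (13.1 kb), while Pf4 and Itga2b were among those with none.

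Across all these lists the level of the mark is unknown, because the processed file used here gives peak bounds without signal. The median of the longest peak at a start site was 8.25 kb over the 8 erythroid markers, 3.82 kb over the 11 pro-B markers with a peak and 2.56 kb over the 10699 protein-coding genes with a peak.

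**Figure D2:**
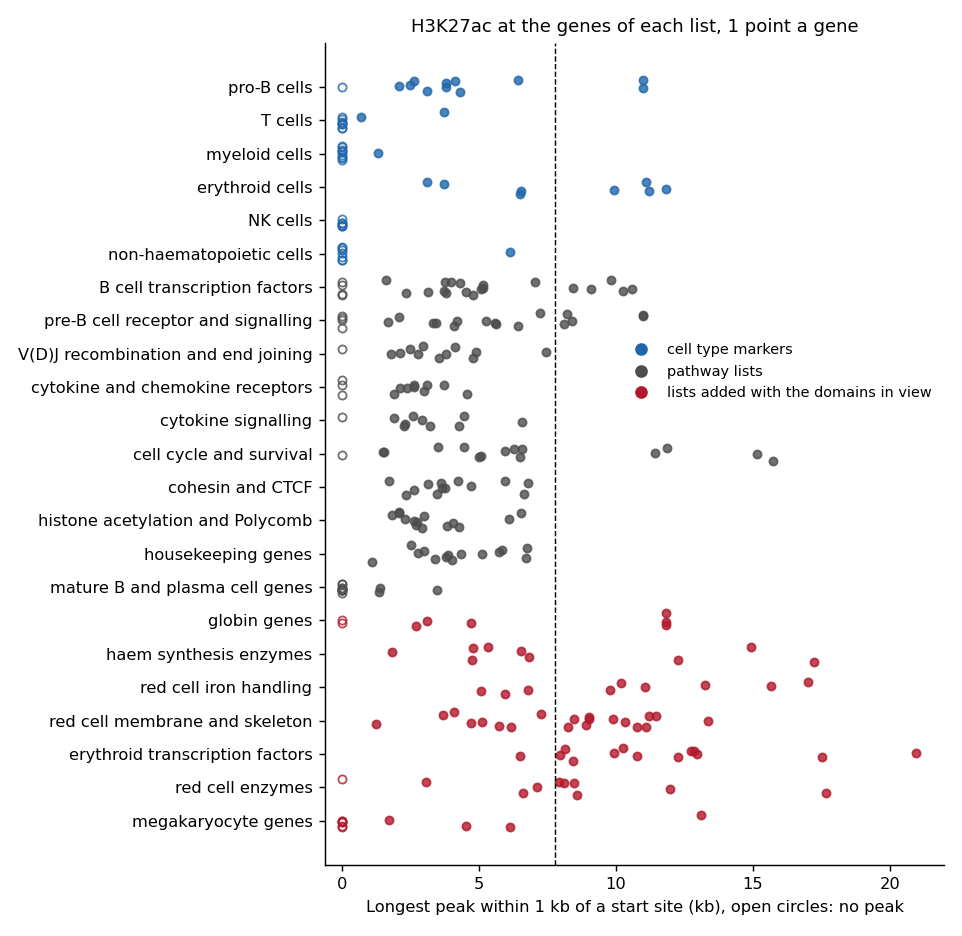
Length in kb of the longest H3K27ac peak within 1 kb of a start site (x axis) for each gene, 1 point a gene, by list (rows), with open circles at 0 for genes without a peak and a dashed line at the threshold. Blue rows are cell type markers, grey rows pathway lists and red rows the lists written with the domains in view. Points right of the line number 4 of 8 for erythroid markers and 2 of 12 for pro-B markers, beside 2.82% of all protein-coding genes. Housekeeping genes have 0 of 14, which is near that share. Erythroid transcription factors, a list written with the domains in view, have 12 of 13.

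B cell genes were the second group. Across B cell transcription factors, the pre-B cell receptor with its signalling, and the pro-B markers, 48 genes in all, 40 had a peak and 10 (20.8%) a long domain, in 9 domains, against 47.8% and 2.82% of all protein-coding genes. Of the 23 transcription factor genes, 19 had a peak and 5 a long one: Erg (10.6 kb), Runx1 (10.3 kb), Bcl11a (9.82 kb), Ikzf1, which encodes Ikaros (9.12 kb), and Tcf3 (8.44 kb). These 5 are also used in blood cells other than B cells. Erg, Runx1, Bcl11a and Ikzf1 each held another long domain inside the gene, the longest of them 14.2 kb in Ikzf1. The B-lineage factors had shorter peaks, of 4.32 kb at Ebf1, 3.79 kb at Pax5 and 4.55 kb at Pou2af1. Irf4, which rises later in B cell development, had no peak, nor had Spib, Ikzf3 and Id2 at their start sites.

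In the pre-B cell receptor group 16 of 20 genes had a peak and 5 a long one. Vpreb1 and Igll1, which encode the surrogate light chain that pairs with the Igμ chain, began in 1 domain of 11.0 kb together with Top3b (chr16:16861195-16872188). The related Vpreb3 began in a domain of 8.22 kb shared with Chchd10, Gm867 and Mmp11, so that its mark cannot be told apart from theirs. The adaptor Blnk had 8.43 kb and the surface antigen Cd24a, which red cell precursors also carry, 8.14 kb. Cd79a had a peak of 2.09 kb, with another of 7785 bp over the gene or within 1 kb of it, just short of the threshold. Cd22, Cd72, Cd79b and Blk had no peak at a start site.

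No long domain lay at the start site of any of the 12 genes of V(D)J recombination and end joining, of which 11 had a shorter peak. With 2.82% of all protein-coding genes at a long domain, a count of 0 in a list of this size is near the background. Rag1, which carries the Cre allele in these mice, had 2.51 kb, Rag2 3.82 kb and Dntt 4.15 kb. The same was true of 12 cytokine and chemokine receptors (9 with a peak, Il7r 3.13 kb and Kit 2.63 kb), 10 genes of cytokine signalling (9), 13 of cohesin and CTCF (13), 14 of histone acetylation and Polycomb (14), 14 housekeeping genes (14) and 12 mature B and plasma cell genes (3). At the 90th percentile, where 5.25% of all protein-coding genes had a long domain, the counts were 3 for cohesin and CTCF, 3 for housekeeping genes, 2 for histone acetylation and Polycomb, 1 each for V(D)J recombination and cytokine signalling, and 0 for the receptors and the mature B and plasma cell genes. At the kinase gene Pim1 of the signalling list, a domain of 8.28 kb lay 4.93 kb from the start site. Wapal, the gene of the cohesin release factor Wapl, had a single peak of 4.24 kb, rank 3381 by length.

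Genes of proliferation and survival held long domains in 4 of 15 cases at a start site, and in 7 over the gene, against 2.82% and 3.76% of all protein-coding genes. Trp53, encoding p53, shared 15.8 kb with Wrap53. The cell cycle inhibitor Cdkn1b had 15.2 kb, which covered the whole gene, and Mki67 had 11.9 kb. Ccnd3, the D-type cyclin of lymphoid and red cell precursors, had 3 long domains, of 13.9, 11.4 and 9.73 kb, which together covered 34.7% of the gene. The survival gene Bcl2l1 had 2 (15.3 and 10.6 kb), neither at a start site, Cdk6 had 2 (11.2 and 8.55 kb), and Mcl1 had one of 13.8 kb within 1 kb of the gene, which lay at the start site of Adamtsl4. Bcl2 itself had a peak of 1.55 kb and Myc one of 5.11 kb.

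Histone genes were a group of their own. Their list was drawn up after the domains were seen. Of 67 annotated genes of the Hist1 to Hist4 clusters, 60 had a peak and 49 a long domain at a start site. The shares over all protein-coding genes were 47.8% and 2.82%. The 49 genes shared 13 domains of 8.37 to 33.1 kb that added up to 192 kb. Genes of these clusters supply the histones made during DNA replication. By class the long domains reached 11 of 11 H3 genes, 13 of 18 H2B, 13 of 19 H2A, 8 of 13 H4 and 4 of 6 H1 genes. Their start sites lie so close together that 1 domain covers several, up to 9 in the domain of 33.1 kb. A group of 4 domains lay within 12.5 kb of each other on chromosome 13 and covered 69.9 of 70.9 kb.

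At the immunoglobulin loci there was a single long domain, at Igh. It was 7816 bp long (chr12:114661954-114669769), rank 888 of the 897, and began 1.01 kb from the gene of the constant region of Igμ, Ighm. It covered 4 annotated J genes and 1 D gene, the D gene nearest to them. The Igh window shown above was taken from the stretch between these J genes and Ighm, which holds the Eμ enhancer. The nearest V gene lay 143 kb away. In the Igh locus as annotated, 2.73 Mb long, 16 peaks were listed. In the Igk locus, 3.17 Mb, there were 3, the longest of which (6.65 kb) covered the constant gene Igkc. A peak of 6996 bp lay 60.8 kb beyond Igkc. Both were below the threshold, as were the 3 peaks of the annotated Igl locus, whose longest was 1.24 kb. None of the 211 annotated V genes of Igh and Igk lay within 10 kb of a long domain, so the recombination libraries were not set beside the domains.

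A start site of any annotated gene lay within 1 kb of 558 of the long domains (62.2%), against 59.3% of all peaks. Another 194 (21.6%) lay in a protein-coding gene without a start site, against 20.7% of all peaks, and 145 (16.2%) outside protein-coding genes, against 20%. The start sites of 3 or more protein-coding genes were reached by 20 long domains (2.23%) and by 57 of all peaks (0.318%), and a longer interval has more room to reach them. These shares count any overlap, and long domains are longer. When only the central 500 bp of each peak were used, 19.7% of long domains and 52.9% of all peaks were at a start site.

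Where exactly 1 protein-coding gene began inside a long domain (295 domains), the mark ran a median of 3.50 kb upstream and 6.55 kb downstream of the 5′ end, and was longer downstream in 189 (64.1%). The same held in 80.3% of 6811 shorter peaks, with medians of 0.832 and 1.42 kb. Individual domains differed. Cpox was marked for 14.2 kb upstream and 3.05 kb downstream, whereas Foxo3 was marked for 2.12 kb upstream and 18.9 kb downstream and Klf3 mostly downstream. A long domain covered a median of 23.6% of the gene and the whole gene in 26 cases, Btg2 and Cdkn1b among them.

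**Figure D3:**
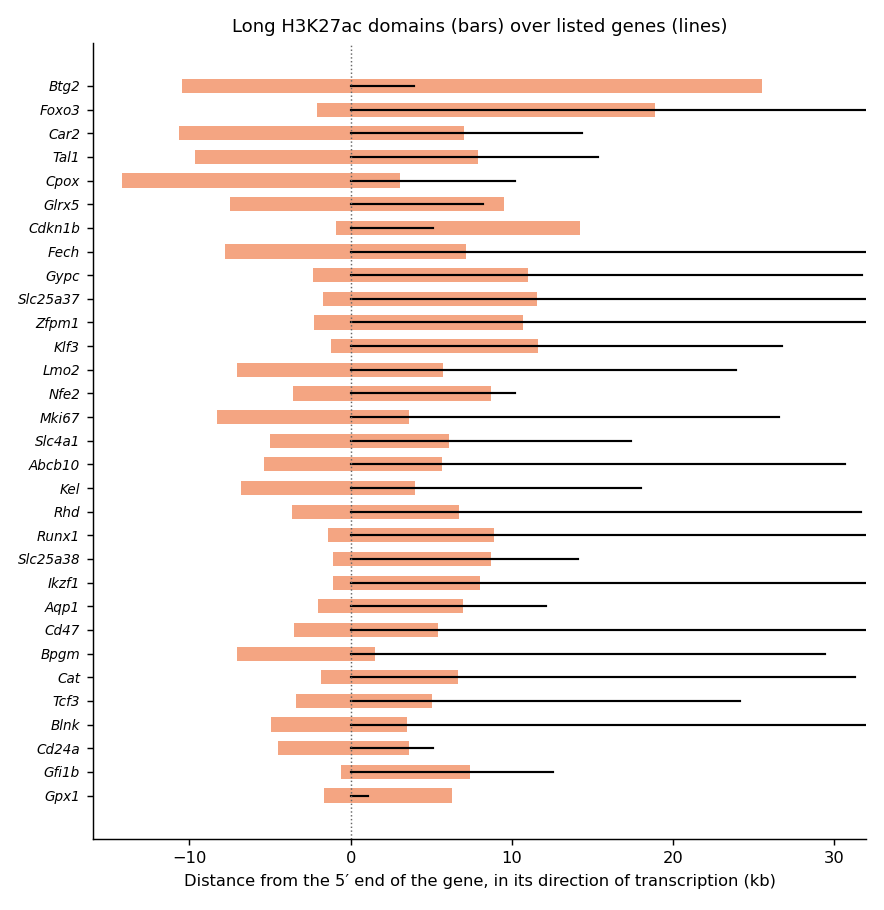
Extent of long domains (bars) around the 5′ end of listed genes and Btg2, in kb along the direction of transcription (x axis), with the gene as a black line that is cut at the right edge where the gene is longer. Genes are ordered by domain length and are those with exactly 1 protein-coding start inside. Btg2 spans from 10.5 kb upstream to 25.5 kb downstream, Cpox lies mostly upstream, and Foxo3 and Slc25a37 mostly downstream.

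The median gap from the edge of a long domain to the next peak was 4.32 kb, against 12.6 kb over all peaks and 5.74 kb for the 897 peaks between the 90th and 95th percentile. Measured between centres, the distances were 12.8, 15.9 and 11.2 kb, so the difference was smaller and the order against the peaks just below the threshold was reversed. No other peak lay within 12.5 kb of 244 (27.2%), against 50.3% of all peaks and 31.5% of those just below the threshold. At least 3 lay that close to 136 (15.2%), against 5.84% and 9.70%. Within 12.5 kb of one another, 157 long domains formed 72 groups, of which 11 held 3 or 4. Besides the histone and α-globin groups, these included Aqp1 with Fam188b and Ghrhr (4 domains), Slc25a37 with D930020E02Rik, Hemgn with Anp32b, and Glrx5 with 4831426I19Rik (3 each). Counted over genes, 11 had 3 or more long domains over their body or within 1 kb of it. They were Pde4d (4), Ccnd3, Usp7, Eef2k, C130039O16Rik, Col5a1, Fam53b, Mbnl1 and Ptprj (3 each), and the very long annotated genes Gm20388 (10) and Fgfr2 (3), whose spans include several other genes.

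By chromosome, the share of peaks that were long ran from 1.75% on X (8 of 457) and 3.10% on chromosome 14 to 6.97% on chromosome 19, and the 4 peaks of Y included none. Per Mb of sequence there were 0.717 long domains on chromosome 19 and 0.0480 on X.

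The bases of the long domains were poorer in CpG than those of other peaks. The median ratio of observed to expected CpG was 0.238, against 0.391 over all peaks, and GC content was 47.3% against 49.7%. At start sites the ratio was 0.288 in long domains and 0.577 in the other peaks, and away from start sites 0.193 and 0.215. The central 500 bp gave 0.200 and 0.408. Exons of protein-coding genes made up 6.60% of the bases of long domains and 11.4% of those of all peaks, and introns 56.8% and 51.6%. Peaks between the 90th and 95th percentile had a CpG ratio of 0.258 and a GC content of 47.5%, close to those of the long domains.

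**Figure D4:**
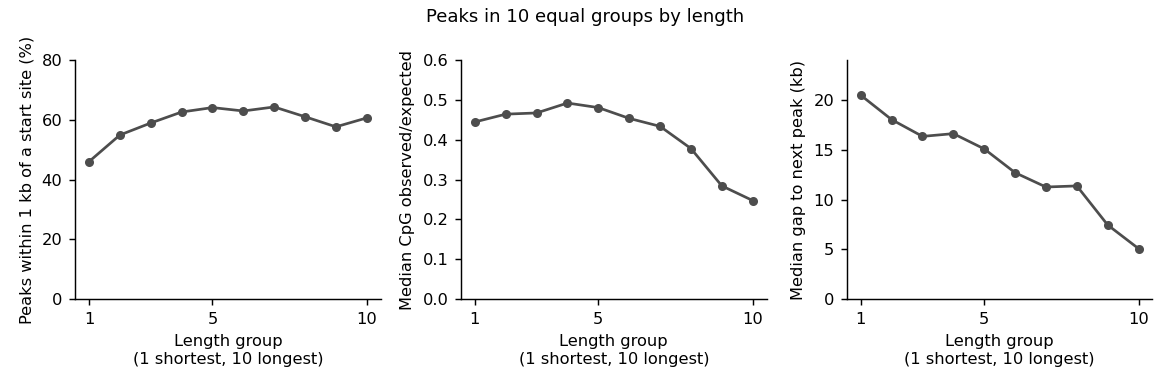
Share of peaks within 1 kb of a start site (left, %), median ratio of observed to expected CpG (middle) and median gap from edge to edge to the next peak (right, kb) over 10 equal groups of peaks by length (x axis, 1 shortest, 10 longest). The share at start sites was 46.0% in group 1, 64.2% in group 7 and 60.6% in group 10, the CpG ratio was 0.444, at most 0.492 (group 4) and 0.247 in group 10, and the gap went from 20.5 to 5.08 kb.

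Short motifs were counted in the 300 bases at the centre of each region, on both strands. AGATAA was found in 16.6% of long domains, 12.5% of all peaks and 16.4% of peaks between the 90th and 95th percentile. At start sites it was found in 17.2% of long domains and 7.63% of the other peaks, and away from them in 15.6% and 18.9%. TGTGGT, the Runx core, was found in 24.3% of long domains and 17.1% of all peaks, CAGCTG in 17.3% and 16.8%, CACGTG in 3.79% and 5.60%, CCCNNGGG, an Ebf core, in 10.1% and 15.6%, GGAA, the Ets core, in 95.8% and 95.5%, and CCGCC, a GC-rich stretch, in 20.1% and 46.2%. The octamer was found in 1.34% and 1.14%. In peaks between the 90th and 95th percentile these motifs, from TGTGGT to the octamer, gave 20.5%, 14.5%, 3.68%, 8.03%, 96.2%, 22.6% and 1.45%. At start sites TGTGGT was found in 24.4% of long domains and 12.6% of the other peaks, and away from them in 24.2% and 22.7%. In the 250 bases before the annotated 5′ end, AGATAA was found in 9.33% of all protein-coding genes, in 6.14% of those with a peak and in 8.73% of the 630 with a long domain, CAGCTG in 11.8%, 10.5% and 9.52%, the octamer in 1.62%, 1.26% and 3.17%, and CCCNNGGG in 13.1%, 14.8% and 17.6%, the reverse of its order at the centres. The centres of long domains less often lie at a start site, as given above, and the part of base composition in these shares was not tested.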

How the data were processed

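The H3K27ac data are 1 ChIP-seq library labelled as sorted Rag1(Cre/Cre) pro-B cells. The authors deposited a list of peaks with 6 columns, of which chromosome, start and end were used, and in which the score is 0 in all 17935 rows. The submitters' processing notes name Bowtie 1.0 and the mm9 build among others. The aligner of this library, the peak caller and its threshold are not given in the sources used here, nor are read depth and input, so depth and counting error are unknown. How the caller joined neighbouring enrichment decides peak length, and could not be examined.

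Length was end minus start, and the 95th percentile used linear interpolation. Positions were compared with the NCBIM37 (mm9) genome and the GENCODE vM1 annotation of the same build (37310 genes, 22380 protein-coding). A start site is the 5′ end of any transcript, and it counted for a peak when it lay within 1000 bp of it or inside it. A list gene was matched by symbol, and 5 list entries by an older symbol from RefSeq. The ratio of observed to expected CpG is the number of CG times length over the product of the numbers of C and G. Analyses ran in Python 3.11.15 with numpy 2.4.6, scipy 1.17.1 and pysam 0.24.0, figures in matplotlib 3.10.9, and the functions were tested on simulated peaks.

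Genes named are those at the 20 longest domains, list genes, genes with 3 or more long domains, those beside the threshold, the immunoglobulin loci and Wapl. Groups of neighbouring domains, and list genes with shorter peaks or none, were named after their values were seen. Some genes of the lists count in them but are not reported here by name. Members and lists were chosen with earlier results of these data known, and the red cell, megakaryocyte and histone lists and the motifs AGATAA and ATTTGCAT after the domains were seen. The alternatives were other percentiles, joined peaks, autosomes only, other start site windows, protein-coding genes only, the central 500 bp, and distances between centres. Tests and p-values were not computed, since there is 1 library. The 28 VDJ-seq libraries and 4 Hi-C libraries were not used here.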

Additional observations from a re-analysis of the deposited data

How the results depend on the processing

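No paired analysis was possible because the result comes from no test and from 1 library. Number and length of the domains follow from the definition. The 90th percentile gave 1794 domains with a median of 7.80 kb, and the 99th gave 180 with a median of 15.3 kb. With peaks within 1000 bp joined the median was 11.8 kb (842 domains), with peaks within 12.5 kb joined 34.4 kb (617 domains), and on autosomes only 10.1 kb (874 domains). The share of long domains at a start site, 62.2% with an exact 95% binomial interval of 58.9% to 65.4% used only as a yardstick, was 19.7% for the central 500 bp of every peak, 57.0% for protein-coding genes only and 66.7% at the 99th percentile. It lay inside that interval with the start site inside the domain, within 2500 bp, at the 90th percentile and, an alternative chosen after seeing the data, without the domains at histone genes (61.7%). The interval treats the domains of 1 library as independent, although 157 of them lay in groups of neighbours, and it measures no spread between libraries. The CpG ratio, 0.238, was 0.200 in the central 500 bp, 0.288 at start sites and 0.193 away from them. The distance to the next peak, 4.32 kb edge to edge, was 12.8 kb centre to centre, against 15.9 kb over all peaks.

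Erythroid markers with a long domain numbered 4 of 8 with start sites within 1000 or 2500 bp and over the gene body, the last chosen after seeing the data, and 6 at the 90th percentile. Pro-B markers numbered 2 of 12 and 3. Limits are the single library, the unknown depth, and a peak file without heights, so that lengths cannot be weighed by signal.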
